A study of Homo sapiens with 6 samples.

Results

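The TAL1 leukaemia core transcription circuit was described here as 10 genes: TAL1, its E-protein partners TCF3 and TCF12, the bridging genes LMO1, LMO2 and LDB1, and the co-bound factors GATA3, RUNX1, MYB and ETS1. They were chosen by symbol, by a rule that uses no measured value but was written with earlier results of these data known, and all 10 were found once among the 58735 genes of the count tables through their Ensembl identifiers in GENCODE 29. RNA-seq libraries of total RNA came from Jurkat, an established line from a human T cell acute leukaemia. The 3 libraries of the first group came from cells infected with a lentivirus for a short hairpin RNA against SATB1 (shSATB1), a nuclear protein that folds chromatin in T cells, and the 3 of the second from cells infected with a control hairpin virus (shCtrl). All 6 libraries share the Jurkat genome and a lentiviral infection, the labels name 1 hairpin construct per group, and the time after infection is not given in the sources used here. The labels do not say whether replicates were grown or infected apart, so a p-value here weighs a difference only against variation among these libraries, some or all of which can be technical.

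TAL1 is a basic helix-loop-helix (bHLH) factor of blood stem and erythroid cells that normal T cells switch off as they mature, and its misplaced activity is a common driver of T cell acute leukaemia. It binds E-box DNA as a pair with an E-protein such as TCF3 or TCF12, and an LMO protein with LDB1 bridges this pair to GATA factors. In leukaemic T cells GATA3, RUNX1, MYB and ETS-family factors occupy many of the same enhancers, including those of their own genes, which is why the set is called a circuit. In Jurkat, a small insertion upstream of TAL1 is known to create binding sites for MYB.

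SATB1 stood at 101.8, 100.2 and 104.1 CPM (a gene's read count divided by the library's scaled total, the usual depth-corrected unit) in shSATB1 libraries 1, 2 and 3, against 279.1, 258.5 and 259.3 CPM in shCtrl libraries 1, 2 and 3. The labels of all 6 libraries were thus matched by their SATB1 level. Reads in genes numbered 26626539 to 28143385 in shSATB1 libraries and 27737353 to 28913623 in shCtrl libraries, where 3 reads correspond to 0.104 to 0.113 CPM. All 12 T cell markers were measured, with a summed level of 3679 to 3959 CPM in shSATB1 and 4010 to 4465 CPM in shCtrl. Of these markers 6 were lower in shSATB1 and 1 was higher, against 16.6% and 14.3% of all genes tested. Among the called markers were TRBC1 (log2 fold change -0.39, edgeR adjusted p = 0.00212) and TRAC (0.47, edgeR adjusted p = 0.000580). Markers of other cells were low: 6 B cell markers summed to 52.8 to 59.2 CPM in shSATB1 and 58.7 to 67.7 CPM in shCtrl, mostly CD79A, which was lower in shSATB1 (-0.26, edgeR adjusted p = 0.0249), with PAX5 near 0. The 6 myeloid markers summed to 1.17 to 2.26 CPM in shSATB1 and 1.22 to 1.70 CPM in shCtrl, with SPI1 at or near 0, and 6 epithelial and fibroblast markers to 20.5 to 21.7 CPM in shSATB1 and 14.7 to 17.4 CPM in shCtrl, nearly all COL1A1, which was higher in shSATB1 (0.43, edgeR adjusted p = 0.00295), with EPCAM at 0. Their part in the results was not tested, and in bulk RNA fewer cells of a type cannot be told apart from less RNA per cell. Reads that overlapped no exon, called off-exon reads here, averaged 11.4% ± 0.436 of a shSATB1 library and 9.10% ± 1.23 of a shCtrl library (SD, n = 3 each). Single libraries ranged from 10.9% to 11.7% in shSATB1 and from 7.77% to 10.2% in shCtrl, without overlap. A fit with the off-exon share as a covariate is named in the results where it ends a call or turns a direction. Because the ranges are separate, this fit tells the share and the group apart poorly. A call lost there can come from lost precision alone.

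The reference sequence just before the RefSeq starts of TAL1 is shown because TAL1 had the largest change among the 9 tested circuit genes and the circuit's factors are reported to act on its locus. The windows are the 250 bases before each of 2 starts, read on the minus strand of GRCh38.p14, at chr1:47232336-47232585 and chr1:47231716-47231965. They are reference sequence and not that of Jurkat. Capitals mark matches, on either strand, to the letters CANNTG for an E-box, to GATAA for the core of a GATA site, to TGTGGT for RUNX proteins, and to CAACNG for MYB.
TAL1 window 1: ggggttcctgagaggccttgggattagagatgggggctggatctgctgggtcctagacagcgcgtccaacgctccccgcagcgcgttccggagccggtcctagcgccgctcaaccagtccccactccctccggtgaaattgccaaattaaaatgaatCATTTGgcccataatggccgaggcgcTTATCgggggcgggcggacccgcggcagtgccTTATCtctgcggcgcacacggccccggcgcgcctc
TAL1 window 2: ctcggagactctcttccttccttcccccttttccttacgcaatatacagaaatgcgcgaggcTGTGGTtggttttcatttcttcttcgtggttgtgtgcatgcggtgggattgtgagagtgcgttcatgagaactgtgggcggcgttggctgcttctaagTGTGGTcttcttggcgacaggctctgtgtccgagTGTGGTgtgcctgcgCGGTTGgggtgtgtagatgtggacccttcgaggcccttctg
Window 1 held 1 E-box, at position -93 from the start, and the GATA core on the reverse strand at positions -67 and -35. The match at -35 also has the longer letters AGATAA, which contain the core. Window 2 held the RUNX letters at positions -188, -90 and -56 from its start and the MYB letters on the reverse strand at -41. The E-box form CAGATG, often given for TAL1 with an E-protein and 1 case of the general E-box, was in neither window. Among 35116 RefSeq windows of this length, 61.8% held any E-box, 12.2% the E-box form named here, 20.4% the GATA core, 9.17% its longer form, 11% the RUNX letters and 27% the MYB letters. The core of ETS sites, GGAA, was in 92.7% of windows and was not marked. The GATAA search was added after the sequences had been seen, and a match in this window is a description of letters only. Promoter windows were found for 8 of the 10 circuit genes. In the first windows of LMO1, LDB1, GATA3, RUNX1, MYB and TCF3, none of the E-box, GATA core, RUNX and MYB letters was present, while the first window of TCF12 held 1 E-box and 1 match to the MYB letters. Among further windows, GATA3 had 2 E-boxes and 1 match to the RUNX letters in window 3, 1 E-box in window 5 and 1 GATA core in window 6, and TCF12 had 1 E-box in window 5.

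Of the 10 genes, 9 had enough reads to be tested. TAL1, LDB1 and GATA3 were higher in shSATB1, LMO1, MYB and ETS1 were lower, and TCF3, TCF12 and RUNX1 did not pass the threshold (edgeR quasi-likelihood test, Benjamini-Hochberg adjusted over 17520 genes, 0.05). LMO2 was too low to test. The circuit genes called thus numbered 6 of 9 tested, in a comparison that called 30.9% of all genes tested, 14.3% higher and 16.6% lower. Apart from LMO1, above 38.0% of tested genes in mean level, the tested circuit genes lay above 89.9% to 99.4% of them. Small changes pass the threshold more easily at such levels, and the share called among genes of like level was not computed. The counts are thus no measure of enrichment. The median log2 fold change over the 9 genes was 0.11, against 0.0091 over all genes tested. Libraries of the groups did not overlap for the same 6 genes, as for 45.1% of all genes tested. TAL1 alone was called with a change of 1.5-fold or more, which held for 7.07% of all genes tested.

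**Figure D1:**
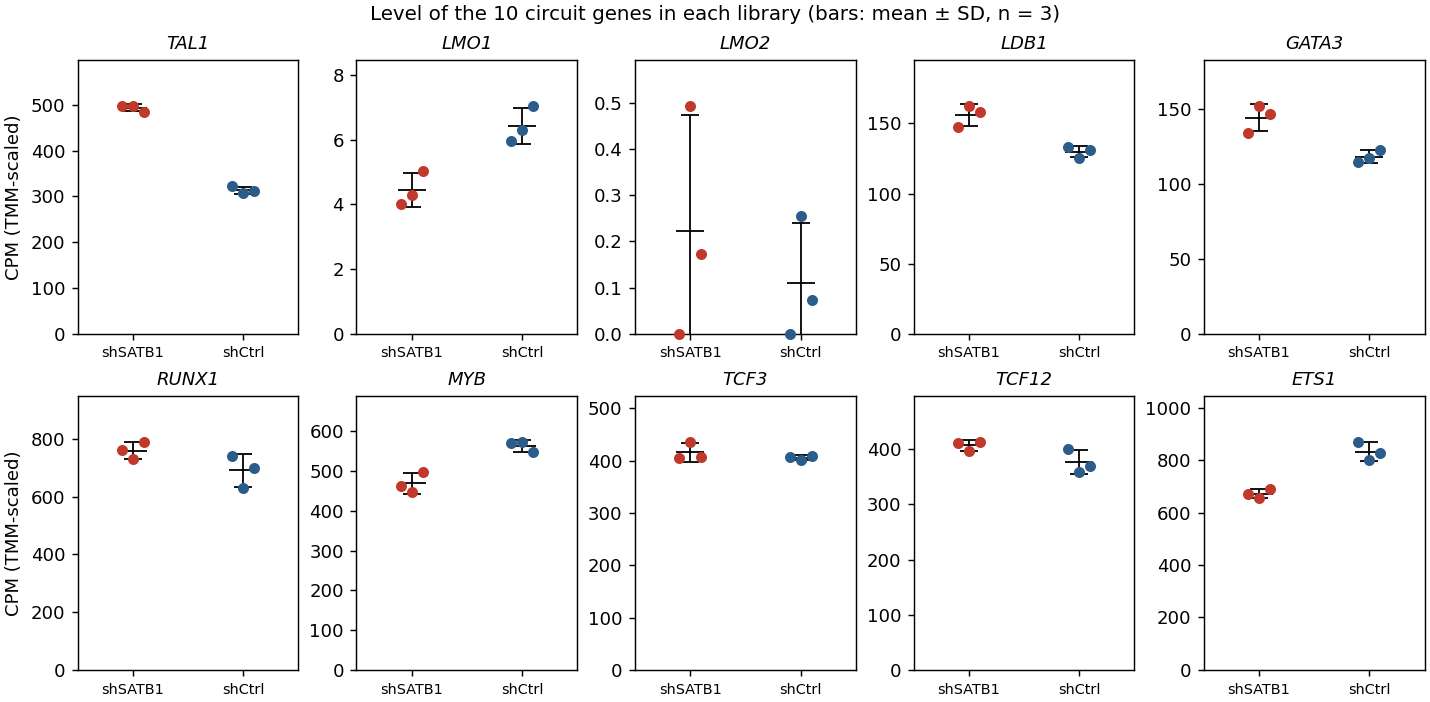
CPM of each of the 10 circuit genes in the 3 shSATB1 libraries and the 3 shCtrl libraries, 1 point per library with the mean and SD, each panel with its own axis from 0. The groups stand apart for TAL1, LMO1, LDB1, GATA3, MYB and ETS1 and overlap for RUNX1, TCF3, TCF12 and LMO2.

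TAL1 (ENSG00000162367, chromosome 1, 47216290 to 47232220, minus strand, hg38) had 497.8, 497.1 and 484.3 CPM in shSATB1 libraries 1, 2 and 3, against 321.9, 306.8 and 311.0 CPM in shCtrl libraries 1, 2 and 3. Every shSATB1 library lay above every shCtrl library, and libraries of a group lay close together. The means were 493.1 ± 7.60 CPM in shSATB1 and 313.3 ± 7.78 CPM in shCtrl (SD, n = 3 each), a log2 fold change of 0.65 with a standard error of 0.0582 and a 95% interval from 0.53 to 0.78 (edgeR, adjusted p = 4.43e-06). This is a 1.57-fold higher level, and 9.30% of tested genes changed by as much or more in either direction. For the other called circuit genes this share was larger, at 14.9% for LMO1, 36.7% for ETS1, 39.7% for GATA3, 43.2% for MYB and 43.3% for LDB1. The TAL1 call held in each of the 16 other settings tried, where the log2 fold change lay between 0.61 and 0.68. TAL1 shares 845 bases, or 14.8% of its exon sequence, with the antisense gene AL135960.1. That gene was also higher in shSATB1, at 28.95 ± 0.470 CPM, than in shCtrl, at 15.6 ± 1.70 CPM (log2 fold change 0.89, edgeR adjusted p = 1.23e-05). The strand setting of the counting is not given in the sources used here, so reads of TAL1 and AL135960.1 cannot be told apart with certainty. STIL was the nearest tested coding gene on one side and is the partner of TAL1 in a recurrent deletion of T cell leukaemia. It averaged 117.3 ± 2.47 CPM in shSATB1 and 123.6 ± 3.54 CPM in shCtrl and was not called (log2 fold change -0.075, edgeR adjusted p = 0.359).

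**Figure D2:**
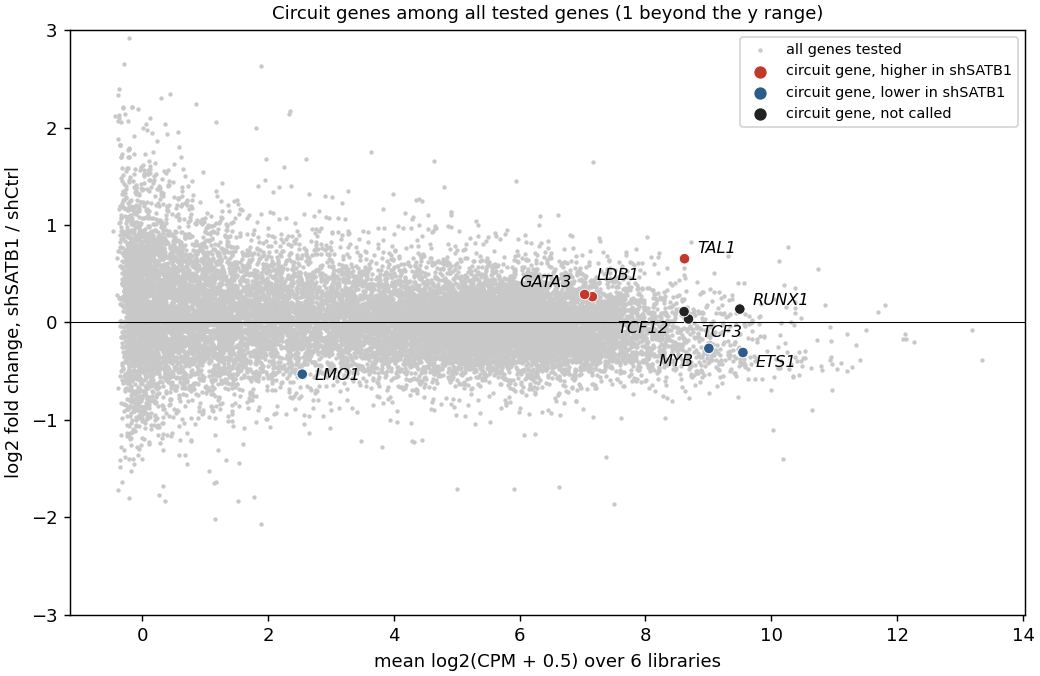
Log2 fold change of shSATB1 over shCtrl against mean log2(CPM + 0.5) over the 6 libraries for all 17520 genes tested (grey) and the 9 tested circuit genes (coloured by call). TAL1 is at 0.65, LMO1 at -0.53, and the other tested circuit genes lie between -0.31 and 0.29.

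TCF3 and TCF12 encode the E-proteins E2A and HEB, which drive early lymphoid genes as pairs with each other and are drawn into the TAL1 complex in leukaemia. TCF3 (chromosome 19, 1609290 to 1652605) had 404.1, 436.1 and 407.3 CPM in shSATB1 libraries, against 406.9, 400.6 and 409.0 CPM in shCtrl libraries. TCF12 (chromosome 15, 56918623 to 57299281) had 411.3, 395.7 and 413.3 CPM in shSATB1 libraries, against 401.0, 358.9 and 369.3 CPM in shCtrl libraries. The groups overlapped for both genes. The log2 fold change was 0.036 for TCF3, with a 95% interval from -0.092 to 0.16 (edgeR adjusted p = 0.685). For TCF12 it was 0.11, with an interval from -0.023 to 0.25 (edgeR adjusted p = 0.197), and its sign turned with the off-exon share as covariate (-0.033) and with values corrected for length and GC content (-0.010). Neither interval reached the 1.57-fold change of TAL1.

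Per kilobase of exon, which allows levels to be set against each other, the ratio of TAL1 to the sum of TCF3 and TCF12 was 0.794, 0.768 and 0.767 in shSATB1 libraries, against 0.516, 0.518 and 0.513 in shCtrl libraries. All 3 shSATB1 ratios were above all 3 shCtrl ratios, and within a group the ratio varied little. The ratio of TCF3 to TCF12 overlapped between groups, at 1.59 ± 0.106 in shSATB1 and 1.68 ± 0.0875 in shCtrl (SD, n = 3 each). These ratios were formed with the values of their genes known, carry no test, and concern RNA and not protein.

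**Figure D3:**
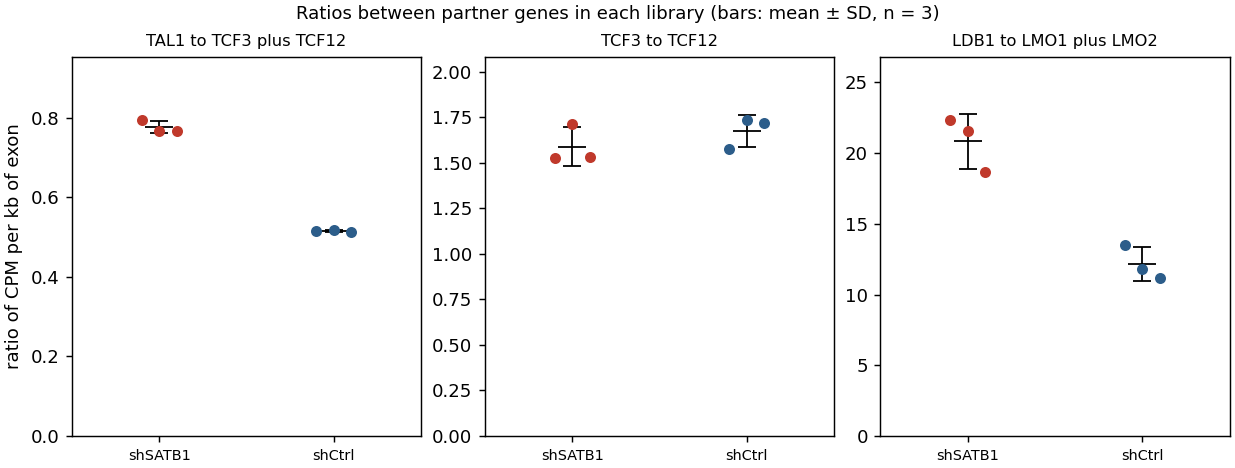
Ratios of levels per kilobase of exon in each library, for TAL1 over TCF3 plus TCF12, TCF3 over TCF12, and LDB1 over LMO1 plus LMO2, shSATB1 left and shCtrl right, 1 point per library. The ratios over TCF3 plus TCF12 and over LMO1 plus LMO2 are higher in every shSATB1 library, and TCF3 over TCF12 overlaps.

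Of 7 other genes of the bHLH partnership, 5 were tested. In shSATB1 3 were higher, against 14.3% of all genes tested, and none was lower, against 16.6%. The higher genes were all ID genes, which encode helix-loop-helix proteins without a DNA-binding region that hold E-proteins off DNA. ID2 averaged 6.93 ± 0.206 CPM in shSATB1 and 3.61 ± 0.790 CPM in shCtrl (log2 fold change 0.94, edgeR adjusted p = 0.000575). ID3 averaged 54.4 ± 5.54 CPM in shSATB1 and 36.4 ± 2.89 CPM in shCtrl (0.58, edgeR adjusted p = 0.000242). ID1 averaged 26.2 ± 3.97 CPM in shSATB1 and 19.4 ± 1.93 CPM in shCtrl (0.43, edgeR adjusted p = 0.00830). The E-protein gene TCF4, at 9.10 ± 0.576 CPM in shSATB1 and 9.61 ± 0.975 CPM in shCtrl, was not called. No gene of this list was lower by edgeR, DESeq2 or limma-voom, and 1 was lower at an unadjusted edgeR p under 0.05. That gene was LYL1, a relative of TAL1, at 0.472 ± 0.134 CPM in shSATB1 and 0.918 ± 0.448 CPM in shCtrl (log2 fold change -0.96, adjusted p = 0.0974), and the list had 1 lower gene without shCtrl replicate 3, with no filter on low counts, and with values corrected for length and GC content. TAL2 and ID4 were too low to test.

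The bridging genes moved in different directions. LMO1 (chromosome 11, 8224304 to 8268716), a LIM-only gene that is itself an oncogene in T cell leukaemia, had 4.005, 4.30 and 5.03 CPM in shSATB1 libraries, against 5.96, 6.29 and 7.05 CPM in shCtrl libraries. Every shSATB1 library was below every shCtrl library, on 110 to 191 reads each. The means were 4.45 ± 0.529 CPM in shSATB1 and 6.43 ± 0.562 CPM in shCtrl, 1.44-fold lower in shSATB1, with a log2 fold change of -0.53 and a 95% interval from -0.82 to -0.24 (edgeR adjusted p = 0.00949). Leaving out shCtrl replicate 3 or shSATB1 replicate 1 ended the call of LMO1 (adjusted p = 0.0540 and 0.0569), as did the covariate (0.157). With the covariate the log2 fold change of LMO1 was -0.52, close to the value without it. LMO2 (chromosome 11, 33858576 to 33892289), the LIM-only partner of TAL1 in blood stem cells, had 0, 14 and 5 reads in shSATB1 libraries, against 0, 7 and 2 reads in shCtrl libraries. These correspond to 0, 0.494 and 0.172 CPM in shSATB1 and 0, 0.255 and 0.0739 CPM in shCtrl. In both groups library 1 had 0 reads and library 2 the most, and no difference could be assessed at this depth.

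LDB1 (chromosome 10, 102107560 to 102120453), whose protein joins LMO proteins into larger assemblies and brings enhancers to promoters, had 147.6, 162.6 and 157.9 CPM in shSATB1 libraries, against 133.0, 125.4 and 131.1 CPM in shCtrl libraries. The groups did not overlap, with shSATB1 above shCtrl. The log2 fold change was 0.26 with a 95% interval from 0.13 to 0.40, a 1.202-fold higher level (edgeR adjusted p = 0.00543), and the call was lost with the covariate (adjusted p = 0.0698). The ratio of LDB1 to LMO1 plus LMO2 per kilobase was 20.8 ± 1.93 in shSATB1 and 12.2 ± 1.21 in shCtrl, without overlap. This separation follows from the LDB1 and LMO1 values already given and is no further result. Like the other ratios, it carries no test.

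Of 7 other LMO and LDB1 partners, 5 were tested. None was higher and 2 were lower, against 14.3% and 16.6% of all genes tested. No gene of this list was higher at an unadjusted edgeR p under 0.05 (0 genes), nor by DESeq2 or limma-voom. SSBP3 and SSBP4 encode single-stranded-DNA-binding proteins that attach to LDB1, and members of this family are known to protect it from degradation. SSBP3 averaged 134.0 ± 3.40 CPM in shSATB1 and 162.5 ± 7.09 CPM in shCtrl (log2 fold change -0.28, edgeR adjusted p = 0.00350). SSBP4 averaged 77.4 ± 3.82 CPM in shSATB1 and 93.7 ± 5.29 CPM in shCtrl (-0.27, edgeR adjusted p = 0.00662). Both calls were lost with the covariate (adjusted p = 0.0584 for SSBP3 and 0.399 for SSBP4), and that of SSBP4 also without shSATB1 replicate 1 (adjusted p = 0.0623). SSBP2, at 205.0 ± 2.25 CPM in shSATB1 and 203.9 ± 9.52 CPM in shCtrl, LMO4 and RLIM, a ubiquitin ligase of LDB1, were not called.

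Among the co-bound factors, GATA3, a master regulator of T cell fate, was higher, MYB and ETS1 were lower, and RUNX1 was not called. GATA3 (chromosome 10, 8045378 to 8075203) had 134.2, 152.1 and 146.4 CPM in shSATB1 libraries, against 114.3, 117.4 and 122.8 CPM in shCtrl libraries. The lowest shSATB1 library was above the highest shCtrl library. Its log2 fold change was 0.29 with a 95% interval from 0.15 to 0.43, a 1.22-fold higher level (edgeR adjusted p = 0.00450).

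MYB (chromosome 6, 135181315 to 135219173), a factor that keeps blood progenitors and leukaemic T cells growing, had 462.4, 446.6 and 498.2 CPM in shSATB1 libraries, against 571.7, 573.5 and 546.6 CPM in shCtrl libraries. All 3 shSATB1 values were below all 3 shCtrl values. The log2 fold change was -0.27 with a 95% interval from -0.40 to -0.13, 1.202-fold lower in shSATB1 (edgeR adjusted p = 0.00595). MYB-AS1, which shares 103 bases or 1.88% of the exon sequence of MYB, stood at 1.43 ± 0.380 CPM in shSATB1 and 1.34 ± 0.218 CPM in shCtrl and was not called.

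ETS1 (chromosome 11, 128458761 to 128587558), an ETS-family activator of T cell receptor and lymphoid genes, had 671.6, 654.7 and 691.9 CPM in shSATB1 libraries, against 870.0, 800.7 and 828.0 CPM in shCtrl libraries. Again the groups did not overlap, with shSATB1 below shCtrl. The log2 fold change was -0.31 with a 95% interval from -0.44 to -0.18, 1.24-fold lower in shSATB1 (edgeR adjusted p = 0.00195). The calls of GATA3, MYB and ETS1 held with each library left out and with the covariate, and were lost where the test asked for more than a 1.2-fold change.

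RUNX1 (chromosome 21, 34787801 to 36004667), a Runt-family factor needed for early T cell development, had 760.1, 728.6 and 789.5 CPM in shSATB1 libraries, against 741.1, 631.2 and 698.4 CPM in shCtrl libraries. The groups overlapped, and shCtrl replicate 2 was lowest for RUNX1 as for TCF12. The log2 fold change was 0.14 with a 95% interval from -0.012 to 0.29 (edgeR adjusted p = 0.152). RUNX1 was called without shCtrl replicate 1 (0.19, adjusted p = 0.0369), and its sign turned with the covariate (-0.085) and with values corrected for length and GC content (-0.035).

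Of 12 relatives of these factors, including CBFB, the partner subunit of RUNX proteins, all were tested. In shSATB1 6 were higher and 3 were lower, against 14.3% and 16.6% of all genes tested. MYBL2, a relative of MYB that drives cell-cycle genes, averaged 185.0 ± 8.94 CPM in shSATB1 and 273.7 ± 18.1 CPM in shCtrl (log2 fold change -0.57, edgeR adjusted p = 4.95e-05). GATA2, a factor of blood stem cells, averaged 7.34 ± 0.456 CPM in shSATB1 and 5.12 ± 0.984 CPM in shCtrl (0.52, edgeR adjusted p = 0.0138), and its call was lost without shSATB1 replicate 3 (0.0690) and with the covariate (0.0709). ERG, an ETS-family factor of stem cells, averaged 3.10 ± 0.271 CPM in shSATB1 and 4.52 ± 0.403 CPM in shCtrl (-0.54, edgeR adjusted p = 0.0150), a call lost without shCtrl replicate 3 (0.0659), without shSATB1 replicate 3 (0.0785) and with the covariate (0.450). GATA1, the erythroid GATA factor, had 13, 16 and 13 reads in shSATB1 libraries, against 8, 4 and 3 reads in shCtrl libraries, and its call (adjusted p = 0.0285) was lost with any 1 library left out except shCtrl replicate 1, and with the covariate (0.591). Without shSATB1 replicate 3 the list had 3 higher genes in place of 6, and with the covariate 2. The megakaryocyte gene PF4 was at 0 in all 6 libraries, and the summed level of 6 erythroid and megakaryocyte markers was 16.9 to 17.9 CPM in shSATB1 and 18.6 to 19.1 CPM in shCtrl. The other higher genes were RUNX2, RUNX3, ELF1 and FLI1, with log2 fold changes from 0.19 to 0.46, and the other lower gene was ETV6 (-0.47), all 5 named because they complete these counts. CBFB, at 122.9 ± 9.65 CPM in shSATB1 and 128.8 ± 7.17 CPM in shCtrl, was not called.

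Placed on a common scale, CPM per kilobase of exon, ETS1 was highest and LMO1 and LMO2 lowest in both groups. In shSATB1 the order was ETS1 at 94.1, TAL1 at 86.5, MYB at 85.4, TCF3 at 68.4, LDB1 at 55.9, RUNX1 at 48.8, TCF12 at 43.1, GATA3 at 42.0, LMO1 at 2.63 and LMO2 at 0.0714. In shCtrl it was ETS1 at 116.5, MYB at 102.7, TCF3 at 66.7, TAL1 at 55.0, LDB1 at 46.5, RUNX1 at 44.3, TCF12 at 39.8, GATA3 at 34.4, LMO1 at 3.81 and LMO2 at 0.0352. TAL1 was thus at rank 2 in shSATB1 and at rank 4 in shCtrl. Libraries of neighbours overlapped between TAL1 and MYB and between TCF12 and GATA3 in shSATB1, and between LDB1 and RUNX1 and between RUNX1 and TCF12 in shCtrl. Exon length was the union over all annotated transcripts, so a gene with long unused exons is placed too low.

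Proteins known to work with TAL1 as activators or repressors, 16 genes, were all tested. In shSATB1 4 were higher and 4 lower, against 14.3% and 16.6% of all genes tested. Among the higher genes, the largest changes were in the histone acetyltransferase genes CREBBP and EP300. CREBBP averaged 148.8 ± 1.33 CPM in shSATB1 and 102.3 ± 16.3 CPM in shCtrl (log2 fold change 0.54, edgeR adjusted p = 0.000677). EP300 averaged 207.2 ± 6.36 CPM in shSATB1 and 146.1 ± 36.5 CPM in shCtrl (0.50, edgeR adjusted p = 0.00866). In the shCtrl group both varied widely, with EP300 at 182.0, 109.1 and 147.3 CPM, and with the covariate neither was called (0.221 for CREBBP; log2 fold change -0.10 and adjusted p = 0.482 for EP300). CBFA2T3, the ETO2 corepressor of TAL1 complexes, averaged 81.6 ± 3.13 CPM in shSATB1 and 119.2 ± 4.64 CPM in shCtrl (-0.55, edgeR adjusted p = 3.35e-05). SUV39H1, a histone methyltransferase of silent chromatin, averaged 18.4 ± 1.44 CPM in shSATB1 and 25.3 ± 2.34 CPM in shCtrl (-0.46, edgeR adjusted p = 0.00205), a call lost with the covariate (0.179). The other higher genes were RCOR1 and KDM6A and the other lower genes PRMT1 and STUB1, named to complete the counts. HDAC1, HDAC2, KDM1A and SIN3A, corepressor genes, were not called. Higher cofactor genes numbered 2 without shCtrl replicate 3, without shSATB1 replicate 1 or without shSATB1 replicate 3, and with the covariate 0 were higher and 1 was lower.

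Genes reported elsewhere as targets of the TAL1 complex in leukaemic T cells were listed without regard to whether it activates or represses them, and NFKB1 is reported as repressed. Of 16 tested, 5 were higher and 6 lower in shSATB1, against 14.3% and 16.6% of all genes tested. The median log2 fold change was 0.019, against 0.0091 over all genes tested. TRIB2, a pseudokinase gene reported to support survival of TAL1-positive cells, averaged 266.8 ± 4.55 CPM in shSATB1 and 173.0 ± 5.38 CPM in shCtrl (0.63, edgeR adjusted p = 6.57e-06). MYC, the growth regulator, was lower in shSATB1, with a log2 fold change of -0.70 (edgeR adjusted p = 3.23e-06). GIMAP8, at 2.79 ± 0.367 CPM in shSATB1 and 1.88 ± 0.207 CPM in shCtrl, was called (0.57, edgeR adjusted p = 0.0354). Its call was lost by DESeq2, with the covariate, and when shCtrl replicate 2 or 3 or shSATB1 replicate 2 or 3 was left out (adjusted p = 0.0586, 0.110, 0.111 and 0.115 in that order). ARID5B and CDK6, outside the rule for named genes, were also higher, and ALDH1A2, at 572.0 ± 5.30 CPM in shSATB1 and 818.6 ± 15.1 CPM in shCtrl, was lower. DESeq2 called 3 of the list higher and 5 lower, and 3 were higher without shCtrl replicate 3, without shSATB1 replicate 2 or without shSATB1 replicate 3.

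Of 13 genes reported as E-protein targets, 12 were tested. In shSATB1 6 were lower and 1 was higher, against 16.6% and 14.3% of all genes tested. The median log2 fold change was -0.25, against 0.0091 over all genes tested, without regard to whether E-proteins activate or repress a gene. DNTT, the DNA polymerase that adds bases at antigen-receptor joins, had a log2 fold change of -1.87 (edgeR adjusted p = 3.13e-09). IGLL1, a surrogate light chain gene, had 15.9, 20.5 and 16.2 CPM in shSATB1 libraries, against 50.1, 62.6 and 59.9 CPM in shCtrl libraries (-1.71, edgeR adjusted p = 3.23e-07). PTCRA, the pre-T cell receptor alpha chain, averaged 2.90 ± 0.196 CPM in shSATB1 and 5.28 ± 0.451 CPM in shCtrl (-0.86, edgeR adjusted p = 0.000680), a call lost with the covariate (0.0748). RAG1 was also lower (-0.66), as were GFI1 and NOTCH3, and FOXO1 was the gene that was higher (0.64), a call lost with the covariate. VPREB1, with 5 to 11 reads per library, was not tested.

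**Figure D4:**
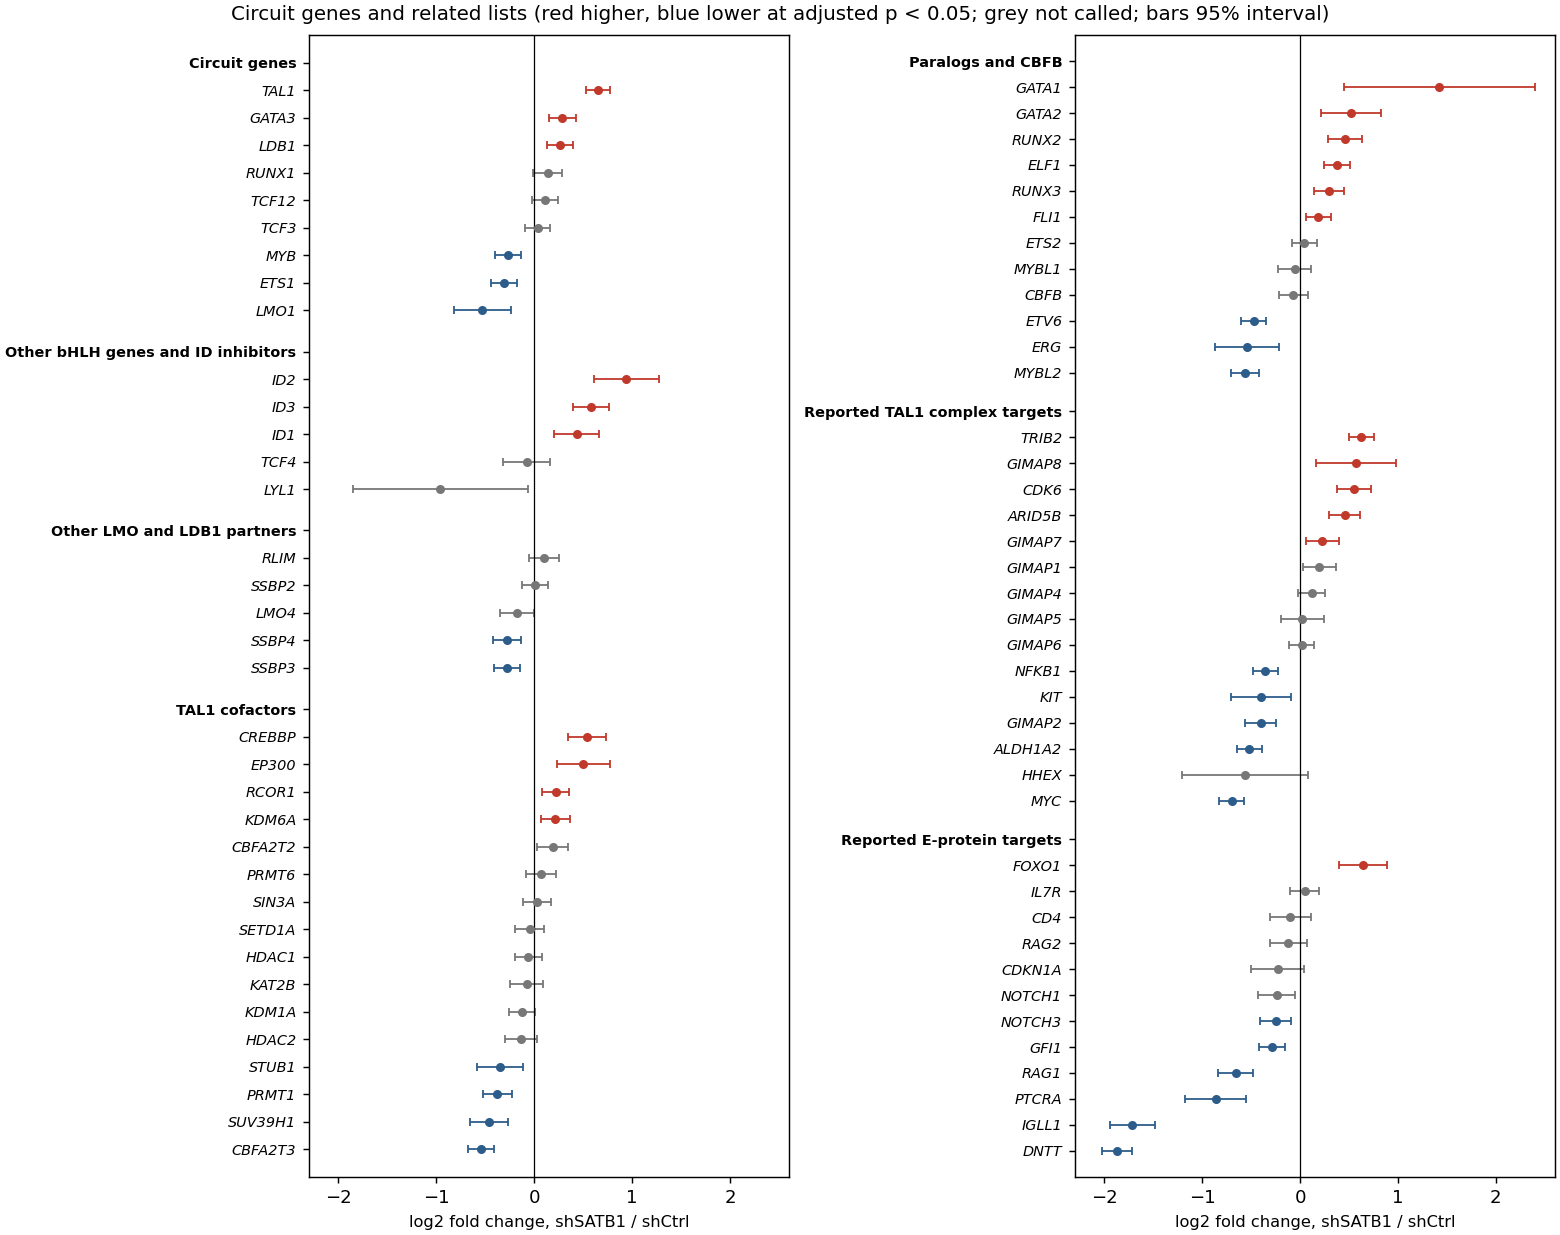
Log2 fold changes of shSATB1 over shCtrl with 95% intervals for the 9 tested circuit genes and the tested genes of 6 lists except 1 not reported here, coloured by call. ID1, ID2 and ID3 are all higher, the reported TAL1 complex targets lie on both sides of 0, and DNTT (-1.87) and IGLL1 (-1.71) lie farthest below it.

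Of the 20 nearest tested coding genes on either side of the 10 circuit genes, 4 were higher, 4 were lower and 12 were not called. Untested genes were passed over, and of all genes tested 14.3% were higher and 16.6% lower. FLI1, another ETS-family gene 98977 bases from ETS1, was higher in shSATB1 (169.6 ± 3.39 CPM, against 148.9 ± 5.30 CPM in shCtrl, log2 fold change 0.19, edgeR adjusted p = 0.0270), where ETS1 was lower. TAF3, next to GATA3, was lower (33.3 ± 0.890 CPM in shSATB1 and 41.7 ± 0.765 CPM in shCtrl, -0.33, edgeR adjusted p = 0.00231), where GATA3 was higher. CELF2, the nearest on the other side of GATA3, was higher as GATA3 was (0.56, edgeR adjusted p = 7.71e-05). TUB, 118192 bases from LMO1, was lower as LMO1 was (-0.35, edgeR adjusted p = 0.00148). The other higher genes were FBXO3 by LMO2 (0.24) and AHI1 by MYB (0.25). The other lower genes were PPRC1 by LDB1 (-0.21) and CGNL1 by TCF12 (-0.90).

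The coding genes with a mean of at least 10 CPM whose library-by-library profile lay closest to that of TAL1, among 9368 searched, were TBL1X, CACNA1H, LAMB1, RAB5B and EPS15L1. Their root mean square difference from TAL1 in centred log2(CPM + 0.5) over the 6 libraries was 0.0292 to 0.0382. TBL1X averaged 56.3 ± 0.633 CPM in shSATB1 and 36.5 ± 1.01 CPM in shCtrl. For ETS1 the closest were FANCD2, SCD, TRIM14, SOX11 and SLC25A37, at 0.0142 to 0.0244. FANCD2 averaged 121.4 ± 4.76 CPM in shSATB1 and 148.3 ± 5.83 CPM in shCtrl. With 6 libraries in 2 groups, genes with a like difference between the groups come out close by construction.

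**Figure D5:**
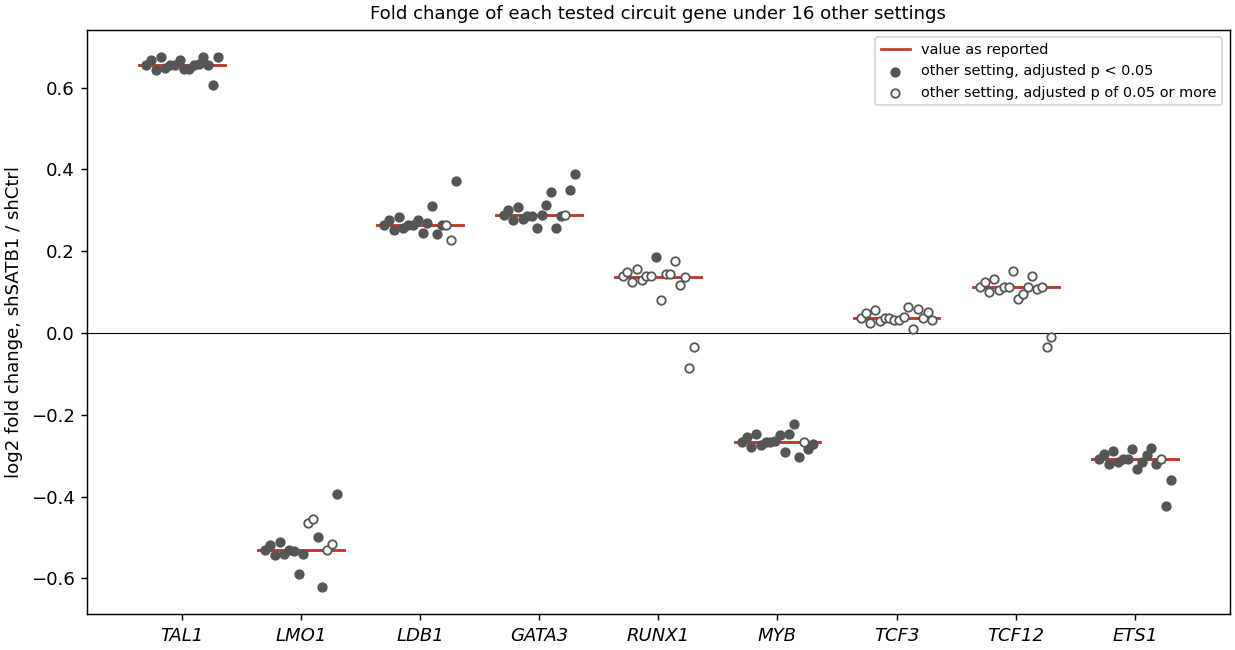
Log2 fold changes of shSATB1 over shCtrl for the 9 tested circuit genes as reported and in 16 other settings, with filled points for settings that called the gene, and a red line at the value as reported. TAL1 stays between 0.61 and 0.68 and is called throughout, and the signs of RUNX1 and TCF12 are not the same in every setting.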

How the data were processed

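RNA-seq libraries of Jurkat cells, 3 shSATB1 and 3 shCtrl, were grouped by their titles. Each library has 1 table of raw counts by Ensembl gene, as deposited by the authors. Per the submitters' processing notes, the tools were Trim Galore, STAR and HTSeq and the build was hg38, with no version listed. Which annotation and strand setting were used is not given in the sources used here. The last 5 lines of a table name no gene and were set aside. Off-exon reads made up 11.4% of a shSATB1 library and 9.10% of a shCtrl library on average, and ambiguous reads 9.11% in shSATB1 and 9.84% in shCtrl. Symbols, coordinates and exon lengths came from GENCODE 29, where each of the 58735 identifiers was present, and promoter windows from RefSeq (GRCh38.p14). Replicates were compared and none duplicated another.

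The test was that of edgeR 4.0.16 in R 4.3.3: TMM scaling, a low-count filter (filterByExpr, minimum 10), the quasi-likelihood test without covariates, and Benjamini-Hochberg adjustment over 17520 genes at 0.05. The biological coefficient of variation was 7.27%. The standard error was taken as the absolute log2 fold change over the square root of the test's F statistic, and the intervals rest on it. CPM were computed from TMM library sizes. The analysis was tested on simulated data. Alternatives included DESeq2 1.42.0, limma-voom (limma 3.58.1), other scalings and filters, a replicate block, each library left out, a 1.2-fold null, the off-exon share as covariate, and values corrected for length and GC content. The circuit genes, lists, tests and alternatives were chosen with earlier results of these data known. Named in each list were up to 4 called genes with the largest change. Also named were overlapping genes that share exon bases, the nearest tested coding genes that were called, and STIL. Others are said to lie outside this rule or to complete a count. Same-numbered libraries had correlated deviations of 0.0798, 0.0712 and 0.0032, against -0.0859 to 0.0157 for differently numbered ones. All these values were small and the numbers were not taken to pair libraries, but a pairing is not excluded. Some list genes that enter counts and sums are not reported here by name.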

Additional observations from a re-analysis of the deposited data

How the results depend on the processing

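Of the 10 circuit genes, 3 higher and 3 lower calls were reported, and with 1 library left out the higher calls numbered 3 to 4 and the lower calls 2 to 3. Over all genes the higher calls then numbered 1650 to 3218 and the lower calls 1817 to 3562. Against a null of a 1.2-fold change, 1 circuit gene was higher and 0 were lower, with 758 genes higher and 698 lower in all, since this test asks for more than a difference. With the off-exon share as covariate, 858 genes were higher and 1262 lower, and the cause was not tested. This covariate, which differs between the groups, turned RUNX1 (-0.085), TCF12 (-0.033) and EP300 (-0.10) to the other sign, and values corrected for length and GC content turned RUNX1 (-0.035) and TCF12 (-0.010). None of these 5 values passed the threshold. With the replicate block, 3 circuit genes were higher and 3 lower, with 2783 genes higher and 3120 lower in all. Other normalizations moved the median of all genes by less than 0.1 on the log2 scale. Over single named genes, 446 values kept their direction and side of the threshold, 42 fell below it and 1 rose above it. At this depth LMO2, with at most 14 reads in a library, could not be compared.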
